A study of Arabidopsis thaliana with 6 samples.

Results

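Transcript levels of 10 genes of the flavonoid pathway were followed in germinated Arabidopsis seeds before and after incubation in polyethylene glycol (PEG). The genes are the enzymes CHS (AT5G13930), CHI (AT3G55120), F3H (AT3G51240), F3'H (AT5G07990), FLS1 (AT5G08640), DFR (AT5G42800), LDOX (AT4G22880) and BAN (AT1G61720), and the regulators MYB12 (AT2G47460) and MYB111 (AT5G49330). They were selected by locus for their role in the pathway, with earlier results of these data known. All 10 were on the array, with 13 of the 35986 features, out of 27981 loci in all. PEG holds water back from the seeds, and the incubation served to bring back desiccation tolerance (DT) in seeds whose radicle had just protruded.

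The treated seeds (PEG, 3 arrays) were wild-type Col-0 seeds at radicle protrusion that were kept for 72 h in PEG at -2.5 MPa, in the dark, at 20 °C. Their controls (untreated, 3 arrays) were Col-0 seeds of the same stage, frozen at once after germination at 22 °C under constant white light. Seeds of both groups had first been stratified for 72 h at 4 °C, and each array stands for 1 pool of seeds from several plants. PEG, darkness, the length of the incubation and the temperature cannot be told apart in this design. The p-values measure the spread between the seed pools, as far as the floor described below leaves it. Whole germinated seeds were extracted, so fewer cells of a type and less RNA per cell cannot be told apart either.

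Flavonoids are phenolic compounds made from phenylalanine. The general phenylpropanoid enzymes deliver a coumaric acid thioester, CHS and CHI turn it into a flavanone, and F3H makes the dihydroflavonol from which the pathway branches. FLS1 leads to the flavonols, which serve as UV screens and antioxidants, whereas DFR and LDOX lead to the anthocyanins and BAN to the proanthocyanidins that colour the seed coat. MYB12, MYB111 and the related MYB11 activate the early genes up to FLS1, and a complex of TT2, TT8 and TTG1 activates DFR, LDOX and BAN in the developing seed coat. In seedlings the early genes are known to be induced by light.

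The values are log2 expression values, and values under 4 were set to 4, a floor meant to equalize background noise. This concerned 38.2 to 41.6 % of the features of an array. Where all arrays of a group lie under the floor, the fold change is understated and the spread within that group is removed. The SE and p with the floor then hold no spread between the pools of that group. This concerned the PEG arrays of CHS, CHI, FLS1, MYB12 and MYB111 and of several genes of the wider list. The change of the values as deposited is therefore given as well. Because limma shares variance over all features, the floor also alters the SE and p of genes that lie above it. F3H changed by -1.43 in both fits. Its SE was 0.14 (limma adjusted p = 0.0036) with the floor and 0.17 (adjusted p = 0.00021) without it. A gene was called where the adjusted p (limma with Benjamini-Hochberg adjustment over all features) was 0.01 or less and the absolute log2 fold change 2 or more. Genes with several features are given by their brightest one, judged by the mean of all 6 arrays. Features differ in their probes, so values are compared between groups and not between genes. Untreated replicate 2 stood apart at low levels: its lower quartile was 2.83, against 2.30 on the other untreated arrays and 2.32 to 2.45 on the PEG arrays.

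Markers of the stage and of seed tissues were examined in both groups. Isocitrate lyase (ICL) and malate synthase (MLS), enzymes of the glyoxylate cycle that mark germinating seeds, lay between 10.9 and 11.9 on all arrays. Of the 6 genes listed for germinating seeds the seed storage protein CRA1 (6.42) and the vacuolar aquaporin TIP3;1 (5.43) were called higher, and the expansin EXPA8 (-1.49) was lower at the limit on p. TIP3;1 lay under the floor on all untreated arrays, with 2.90, 3.43 and 3.01, against 9.98, 9.21 and 9.10 in PEG. It thus did not mark the untreated germinated seeds. CRA1 had 6.19, 5.50 and 5.03 in untreated seeds, against 12.02, 11.93 and 12.04 in PEG. The listed genes thus differed in level and direction. The rise of CRA1 and TIP3;1 is not read as a rise of germination markers. All 6 markers listed for the seed coat endothelium, the layer that makes proanthocyanidins, lay under the floor on every array, BAN and 5 genes of the wider list being among them. Their summed linear values were 18.7 to 22.7 in PEG and 17.3 to 27.6 in untreated seeds. Of the 6 markers listed for the seed coat epidermis 3 lay above the floor on all arrays, and none passed the limit on p (limma; 1, the subtilase SBT1.7, at an unadjusted p of 0.05). The 3 endosperm markers had summed linear values of 951 to 1105 in PEG and 607 to 667 in untreated seeds, and MAN7, an endo-mannanase, was called higher with a log2 fold change of 2.88. The other endosperm markers did not pass the limit, and EPR1 lay the other way, with 7.10, 6.46 and 6.47 in PEG and 7.69, 7.60 and 7.66 in untreated seeds (-0.98, adjusted p = 0.029), while EXPA2 had 0.47. The part of these differences in the results for the pathway was not tested.

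With PEG, transcripts of 4 of the 5 early enzymes declined, F3'H being the exception, and those of the late enzymes were not measured above the floor in either group. Of the 10 genes 2 were called lower, CHS and FLS1, where 1.64 % of all genes were called lower. At any fold change 4 passed the limit on p, namely CHS, CHI, F3H and FLS1, all lower, where 8.09 % of all genes did so. No gene of the 10 was higher at this limit (limma; 0 also at an unadjusted p of 0.05), where 6.59 % of all genes were. The median log2 fold change of the 10 genes was -0.21, against 0.00 over all genes. With the values as deposited, 3 genes were called lower (background 3.3 %) and 5 passed the limit on p (background 15 %), the additional ones being CHI and MYB12, and the median was -1.21, against 0.00 over all genes. DFR, LDOX and BAN were under the floor on all 6 arrays. A filter on low values, which asks for more than 4 on 3 or more arrays, was passed by 6 of the 10 genes. Of these, CHS, CHI, FLS1 and MYB12 passed only through their untreated arrays.

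**Figure D1:**
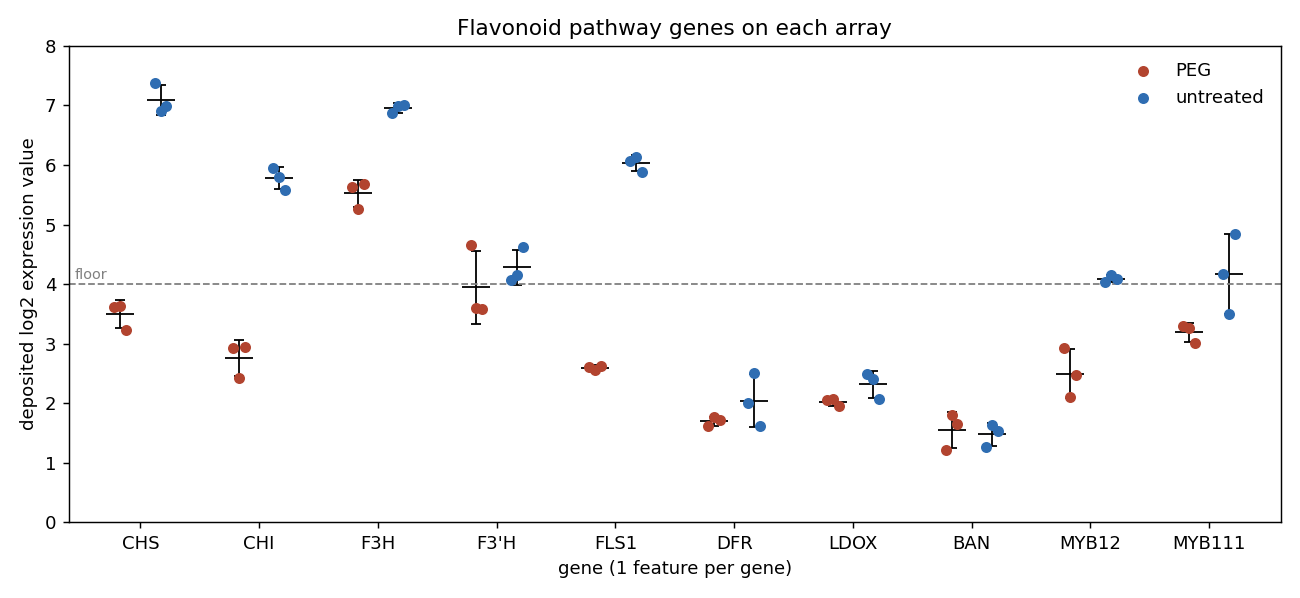
Deposited log2 expression values (vertical axis) of the 10 genes (horizontal axis) on the 3 PEG and the 3 untreated arrays, 1 point per array, with the mean and SD as bars and the floor of 4 as a dashed line. For CHS, CHI, F3H, FLS1, MYB12 and MYB111 all PEG arrays lie below all untreated arrays, and DFR, LDOX and BAN lie under the floor in both groups.

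CHS, chalcone synthase, catalyses the first committed step. It had 3.62, 3.64 and 3.23 on the PEG arrays, against 7.39, 6.91 and 6.99 on the untreated arrays. All PEG values were under the floor and all untreated values well above it. The log2 fold change was -3.09 (SE 0.14, limma adjusted p = 0.000697), a level 8.53-fold lower as the floor allows it to be measured, and -3.60 (SE 0.19, adjusted p = 4.1e-06) for the values as deposited. The call was kept with any array left out, with log2 fold changes of -3.19 to -2.95. AT5G13940, a protein-coding gene that overlaps CHS in the RefSeq annotation, was under the floor on all arrays.

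CHI, chalcone isomerase, closes the ring of the chalcone. Its values were 2.93, 2.42 and 2.94 in PEG seeds and 5.96, 5.81 and 5.59 in untreated seeds, again without overlap and with all PEG arrays under the floor. With -1.78 as log2 fold change (SE 0.10, limma adjusted p = 0.0011) it missed the fold limit, while the values as deposited gave -3.02 (SE 0.19, adjusted p = 9.0e-06) and a call.

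F3H, flavanone 3-hydroxylase, remained above the floor in both groups. It had 5.63, 5.26 and 5.69 on the PEG arrays, against 6.87, 6.99 and 7.01 on the untreated arrays. The groups did not overlap and the log2 fold change was -1.43 (SE 0.14, limma adjusted p = 0.0036), a level 2.70-fold lower that the floor did not touch. The other feature of F3H changed by -1.36 (adjusted p = 0.0032). The limit on p was missed without PEG replicate 1, PEG replicate 3 or any 1 of the untreated replicates (adjusted p = 0.0137 to 0.0204), but not when the values as deposited or the filter on low values were combined with leaving out an array (adjusted p = 0.00022 to 0.00145). AT3G51238, a long non-coding RNA gene annotated as antisense to F3H, fell alongside it. Its values were 5.40, 5.38 and 5.64 in PEG and 6.82, 7.36 and 7.02 in untreated seeds, and the log2 fold change was -1.60 (SE 0.17) with an adjusted p of 0.0047 in limma. It missed the limit on p without PEG replicate 1, 2 or 3 or untreated replicate 1 or 3 (adjusted p = 0.0126 to 0.0258), but not when these were left out from the values as deposited. Both loci overlap, and whether their probes separate the strands is not given in the sources used here.

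FLS1, flavonol synthase, converts dihydroflavonols to flavonols. Its values were 2.61, 2.55 and 2.62 on the PEG arrays, against 6.07, 6.14 and 5.88 on the untreated arrays. The PEG arrays differed by less than 0.1 among themselves and lay far under the floor. The log2 fold change was -2.03 (SE 0.07, limma adjusted p = 0.00045) with the floor and -3.43 (SE 0.15, adjusted p = 1.5e-06) for the values as deposited. The fold change lies next to the fold limit and the call was lost without untreated replicate 2, at -1.97. The other feature, for another gene model, had 2.47, 2.44 and 2.44 in PEG and 5.01, 5.43 and 5.14 in untreated seeds, a log2 fold change of -1.19 with the floor and -2.74 without it. Its relatives FLS2, FLS3, FLS4 and FLS5 were under the floor on all arrays.

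F3'H, flavonoid 3'-hydroxylase, adds the second hydroxyl group to the B ring and so turns kaempferol precursors into those of quercetin. It did not follow the other early enzymes. Its values were 4.66, 3.60 and 3.59 on the PEG arrays, against 4.07, 4.16 and 4.62 on the untreated arrays, so that PEG replicate 1 lay above all untreated arrays and the groups overlapped. The log2 fold change was -0.06 with a 95 % interval of -0.78 to 0.66, and -0.33 for the values as deposited (interval -1.01 to 0.35, limma adjusted p = 0.45). Without the floor and without PEG replicate 1 it was -0.69 (adjusted p = 0.041).

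The size of the changes was compared by the difference between genes within each array. CHS and FLS1 were set to 4 on each of the PEG arrays, which makes their differences to F3H upper bounds there. For CHS minus F3H this difference was -1.69 to -1.26 on the PEG arrays and -0.08 to 0.52 on the untreated arrays with the floor. For FLS1 minus F3H it was -1.69 to -1.26 on the PEG arrays and -1.13 to -0.80 on the untreated arrays. For CHS minus F3'H it was -0.66 to 0.00 on the PEG arrays and 2.37 to 3.32 on the untreated arrays, but F3'H was at the floor as well on PEG replicates 2 and 3, so that the floor sets this difference and nothing is read from it. With the values as deposited, CHS minus F3H was -2.46 to -1.62 in PEG and -0.08 to 0.52 in untreated seeds. FLS1 minus F3H was -3.06 to -2.71 and -1.13 to -0.80, the PEG signal of CHS and FLS1 being under the floor. The groups did not overlap for CHS or FLS1 minus F3H. All 3 comparisons gave p = 0.1 in the exact two-sided permutation test (0.1 after Benjamini-Hochberg adjustment). This is the smallest p that 3 arrays against 3 can give.

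**Figure D2:**
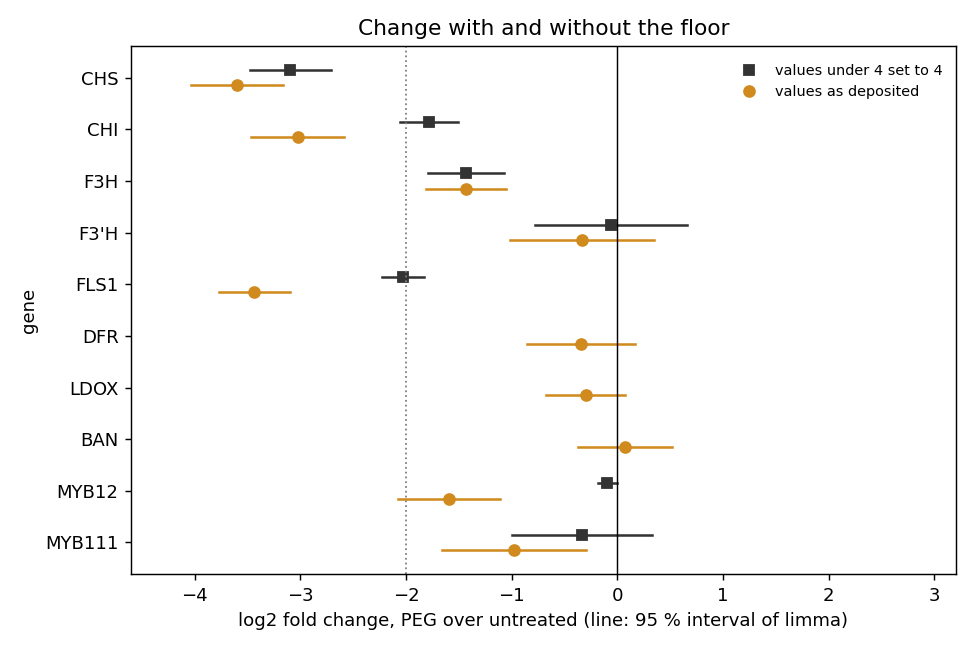
Log2 fold change of PEG over untreated seeds (horizontal axis) for each of the 10 genes (vertical axis), with values under 4 set to 4 (squares) and with the values as deposited (circles), and the 95 % interval of limma as lines. Squares are left out for DFR, LDOX and BAN, which lie under the floor on all arrays, and the dotted line marks the fold limit of -2. CHS, CHI, FLS1, MYB12, MYB111 and F3'H move further from 0 without the floor, and F3H does not move.

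The late enzymes gave no measurable change. DFR, dihydroflavonol reductase, had 1.61 to 1.76 in PEG and 1.62 to 2.51 in untreated seeds. LDOX, which forms anthocyanidins, had 1.95 to 2.07 in PEG and 2.06 to 2.49 in untreated seeds, with identical values on both of its features. BAN, anthocyanidin reductase, had 1.22 to 1.79 in PEG and 1.26 to 1.64 in untreated seeds. These values overlap between the groups and lie near the array medians of those features that never passed the floor (1.95 to 2.10 on PEG arrays and 1.84 to 2.39 on untreated arrays). For the values as deposited, log2 fold changes were -0.34, -0.30 and 0.07 for DFR, LDOX and BAN, with limma adjusted p of 0.28, 0.20 and 0.82. No change was detectable for them at this signal, which does not show that none occurred.

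Both regulators were measured close to the floor. MYB12 had 2.92, 2.10 and 2.48 on the PEG arrays, against 4.03, 4.16 and 4.09 on the untreated arrays, which are close together and just above the floor. With the floor its log2 fold change was held at -0.09 (SE 0.03, limma adjusted p = 0.12), and for the values as deposited it was -1.60 (SE 0.21, adjusted p = 0.00044). Without the floor this change stayed between -1.81 and -1.39 whichever array was left out. MYB111 had 3.30, 3.26 and 3.01 on the PEG arrays and 4.16, 3.51 and 4.84 on the untreated arrays. Its groups did not overlap, but the untreated arrays spread over more than 1 log2 unit, and the log2 fold change of -0.33 with the floor (adjusted p = 0.47) or -0.98 without it (SE 0.30, adjusted p = 0.029) did not pass the limit. Without the floor and without untreated replicate 2 it was -1.31 (adjusted p = 0.0020), with a median of 0.11 over all features. MYB11, the third of this group, lay at 2.01 to 2.33 in PEG and 1.73 to 2.48 in untreated seeds. Over the 10 genes, all PEG arrays lay below all untreated arrays for 6, where 25.3 % of all genes show this.

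**Figure D3:**
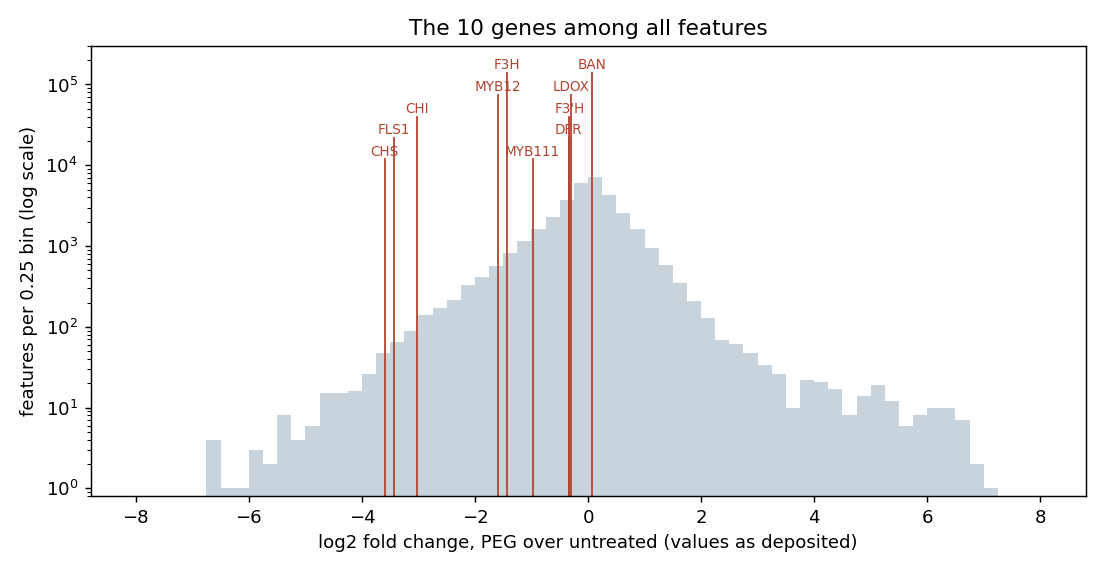
Number of features (vertical axis, log scale) by log2 fold change of PEG over untreated seeds for the values as deposited (horizontal axis, bins of 0.25), with red lines at the 10 genes. CHS, FLS1 and CHI lie in the lower tail with -3.60, -3.43 and -3.02, whereas F3'H, DFR, LDOX and BAN lie near 0.

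The steps around these genes were followed with a list of 61 further genes, chosen by role with earlier results of these data known. Counts from the list are described beside the share over all genes and are not a test. Of these, 25 were under the floor on all arrays, 7 were called lower (background 1.64 %) and 12 were lower at the limit on p (background 8.09 %). The other direction held 1 gene at the limit on p (background 6.59 %), the UV-B receptor UVR8, with 9.30, 9.30 and 9.50 in PEG and 7.98, 7.56 and 7.89 in untreated seeds, a log2 fold change of 1.55 (limma adjusted p = 0.0031). The median log2 fold change of the list was 0.00 with the floor and -0.28 without it, against 0.00 over all genes in both cases. The declines were spread over the roles as follows.

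Upstream of CHS, 2 of the 8 general phenylpropanoid genes were lower at the limit on p (background 8.09 %). C4H, the cinnamate hydroxylase, had 6.45, 6.49 and 6.83 in PEG and 8.13, 8.20 and 8.14 in untreated seeds (log2 fold change -1.57, limma adjusted p = 0.0021). PAL3, a phenylalanine ammonia-lyase, had 2.95, 2.62 and 2.87 in PEG and 5.86, 5.94 and 5.67 in untreated seeds (-1.82, adjusted p = 0.00058). With the values as deposited, 6 of the 8 genes were lower at this limit (background 15 %), and no gene of this role was higher (limma; 0 also at an unadjusted p of 0.05).

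CHIL, the non-catalytic relative of CHI that assists CHS, declined with the early enzymes. It had 2.88, 2.83 and 3.23 on the PEG arrays, against 6.71, 5.90 and 6.67 on the untreated arrays, which gave -2.43 (SE 0.25, limma adjusted p = 0.0045) as log2 fold change, and -3.45 without the floor. Its call was lost without PEG replicate 1, 2 or 3 or untreated replicate 1 or 3 (adjusted p = 0.020 to 0.025), though not with the values as deposited.

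Downstream of FLS1, 3 of the 6 genes of flavonol glycosylation and methylation passed the limit on p, all lower (background 8.09 %). UGT89C1, a flavonol rhamnosyltransferase, had 5.56, 5.42 and 5.47 in PEG and 7.74, 7.53 and 7.51 in untreated seeds (log2 fold change -2.11, limma adjusted p = 0.00050), and remained well above the floor. UGT78D1, which also attaches rhamnose to flavonols, had 3.45, 3.69 and 4.05 in PEG and 5.15, 5.19 and 5.08 in untreated seeds (-1.12, adjusted p = 0.00034). OMT1, a methyltransferase of flavonols and of lignin precursors, had 4.63, 5.70 and 5.12 in PEG and 9.58, 9.75 and 9.38 in untreated seeds, and its log2 fold change was -4.42 (adjusted p = 0.0018). The call of OMT1 was lost without PEG replicate 3 or any 1 of the untreated replicates (adjusted p = 0.010 to 0.013). The values as deposited kept it with any 1 array left out (limma adjusted p = 2.1e-05 to 9.2e-05).

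In the anthocyanin and proanthocyanidin branches, none of the 5 decoration genes or of the 4 transport and oxidation genes passed the limit on p (limma; 0 of the 9 also at an unadjusted p of 0.05). With the values as deposited 1 gene was higher at this limit (background 10.5 %), the anthocyanin acyltransferase A3AT2, with 4.46, 4.49 and 4.07 in PEG and 3.26, 3.57 and 2.94 in untreated seeds (log2 fold change 1.08, adjusted p = 0.0030, and 0.34 with the floor, adjusted p = 0.14). All its PEG arrays were just above the floor and all its untreated arrays under it. TT19, TT12, TT10 and AHA10, which act in the transport and oxidation of anthocyanins and proanthocyanidins, lay between 1.36 and 2.68 on all arrays, under the floor like DFR, LDOX and BAN. The anthocyanin glucosyltransferase UGT75C1 was above the floor in both groups, with 6.27, 5.73 and 6.33 in PEG and 6.08, 5.71 and 4.85 in untreated seeds, and its groups overlapped (log2 fold change 0.56, adjusted p = 0.44).

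Among 13 activators, 1 was lower at the limit on p (background 8.09 %) and was called, PAP2 (MYB90), an R2R3-MYB that activates anthocyanin genes. It had 2.78, 3.93 and 4.76 on the PEG arrays, against 7.24, 7.06 and 7.13 on the untreated arrays, which gave -2.89 (SE 0.25, limma adjusted p = 0.0029) as log2 fold change. The PEG arrays spread widely, yet all lay below the untreated ones, and the call was lost without PEG replicate 1 or 2 or any 1 of the untreated replicates (adjusted p = 0.013 to 0.018), while the values as deposited kept it. TT2 and TT8 were under the floor on all arrays. TTG1, their WD40 partner, had 6.41, 6.39 and 6.49 in PEG and 6.47, 6.46 and 6.32 in untreated seeds, a difference of 0.01 that is smaller than the spread between replicates.

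Among 11 repressors and turnover factors, 2 were lower at the limit on p (background 8.09 %). LBD37, a nitrate-inducible repressor of anthocyanin synthesis, had 3.56, 3.99 and 3.99 in PEG and 6.13, 6.53 and 6.09 in untreated seeds and was called (log2 fold change -2.25, limma adjusted p = 0.0012). MYB4, a repressor of C4H, had 1.64, 2.14 and 2.18 in PEG and 5.18, 5.01 and 5.45 in untreated seeds (-1.21 with the floor, adjusted p = 0.0041, and -3.23 without it).

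Of the 9 genes that connect light to the pathway 3 were lower at the limit on p (background 8.09 %), and UVR8 was higher. With the values as deposited, 5 were lower (background 15 %) and 1 was higher (background 10.5 %). The additional ones were RUP1 (-1.89, limma adjusted p = 7.6e-05), under the floor on all arrays, and RUP2 (-2.35, adjusted p = 3.8e-05). BBX22 lay higher on all PEG arrays (0.56, adjusted p = 0.049, and 0.68 with adjusted p = 0.0090 for its other feature). HYH, the homologue of the bZIP factor HY5, had 3.06, 3.38 and 3.28 on the PEG arrays, against 8.03, 7.73 and 7.72 on the untreated arrays (log2 fold change -3.83, SE 0.10, limma adjusted p = 0.00020). Without the floor its change was -4.59. BBX25, a B-box protein that interferes with HY5, had 2.13, 2.64 and 2.21 in PEG and 6.30, 6.37 and 6.14 in untreated seeds (-2.27, adjusted p = 0.00025). BBX24, which is closely related to it, fell by 1.33 (adjusted p = 0.0032). HY5 itself, which binds the promoters of CHS and MYB12, had 5.76, 6.38 and 6.68 in PEG and 6.87, 6.83 and 7.16 in untreated seeds. Its groups did not overlap, but the change of -0.68 (adjusted p = 0.16) did not pass the limit. The PEG seeds were kept in the dark and the untreated seeds under light, and the part of light in these values cannot be told apart from that of PEG.

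**Figure D4:**
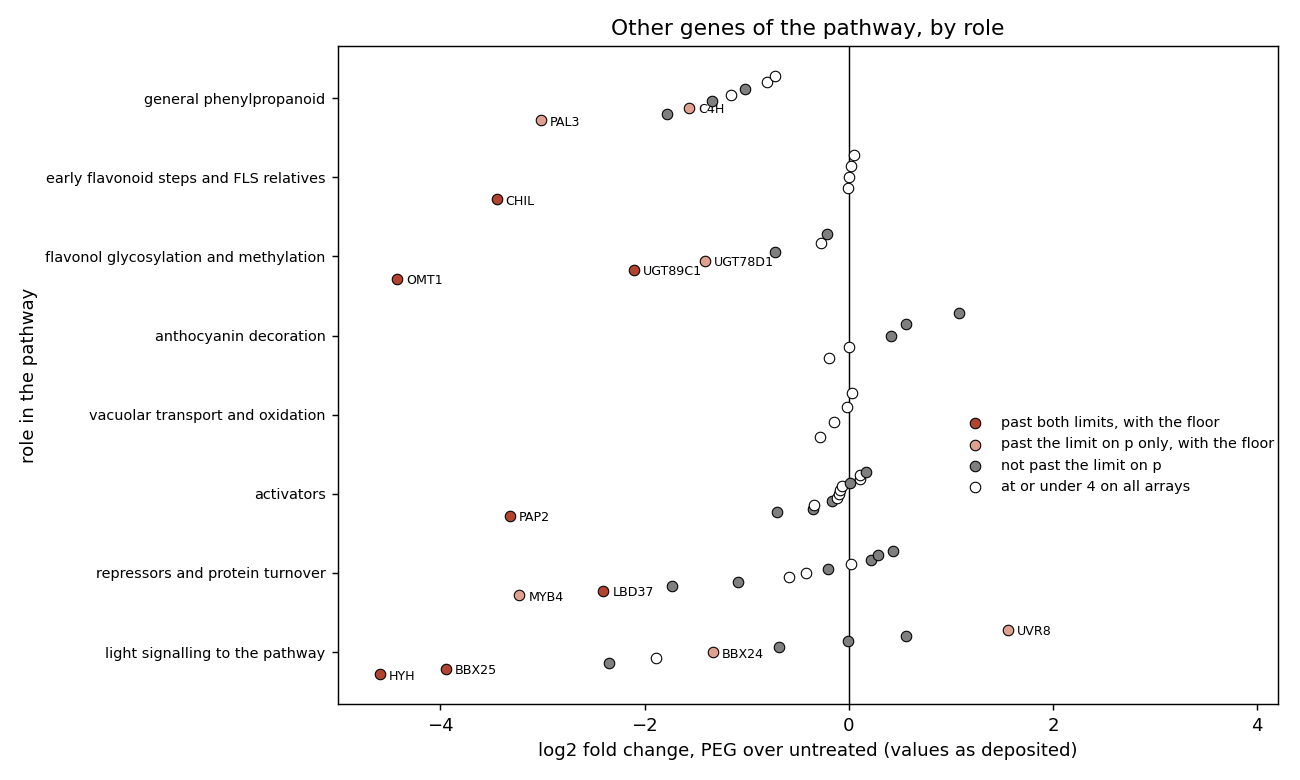
Log2 fold change of PEG over untreated seeds for the values as deposited (horizontal axis) of the 61 further genes, grouped by role (vertical axis), 1 point per gene. Dark red points pass both limits with the floor, light red points the limit on p alone, grey points do not pass it, and open points lie at or under 4 on all arrays. Named points reach from -4.59 for HYH to 1.55 for UVR8, and the open points of transport and oxidation lie near 0.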

How the data were processed

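The authors deposited log2 expression values per gene model for 6 Affymetrix arrays (50 ng of RNA each), and RMA is named in the submitters' processing notes. The paper's methods give RMA with a custom probe definition for its ABA arrays, and the probe definition of these 6 arrays is not given in the sources used here. Array medians were 4.81 to 4.97, and 0 columns could not be mapped to a sample. Groups follow the labels.

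Values under 4 were set to 4, as in the paper's methods, and lmFit and eBayes of limma 3.58.1 (R 4.3.3) were run on all features without covariates, followed by Benjamini-Hochberg adjustment. The procedure was also run on simulated data with changes of known size. Only features well above the floor before the change were altered. That run therefore says little about genes that lie near or under the floor. Summaries were made with Python 3.11.15 and pandas 2.3.3. All 10 genes and the 61 of the wider list matched the RefSeq gene table, which was used for names and overlapping loci. The members and lists were chosen with earlier results of these data known.

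Named were all 10 genes, the called genes of the wider list, the gene with the largest change at the limit on p in each role, AT3G51238, and the late-branch genes and regulators TT19, TT12, TT10, AHA10, TT2, TT8, TTG1 and MYB11. Other names (C4H, UGT78D1, UGT75C1, MYB4, BBX24, HY5, UVR8, the FLS relatives, AT5G13940 and the markers ICL, MLS, CRA1, TIP3;1, EXPA8, EXPA2, EPR1, SBT1.7 and MAN7, and 4CL1, A3AT2, RUP1, RUP2 and BBX22) were chosen after their values were seen. Alternatives were no floor, a floor of 5, a fold limit of 1, an adjusted p of 0.05, quantile normalization, centring on the median, a filter on low values, 1 feature per gene, a prior that was trended and robust, a block for the replicate number, and each array left out in turn. Combinations of no floor or the filter with the block, with leaving out an array or with the fold limit were chosen after seeing the data. The number of arrays limits the precision.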

Additional observations from a re-analysis of the deposited data

How the results depend on the processing

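All calls of the 10 genes and of the wider list were lower in PEG under every alternative tried, except UVR8, which was called higher at a fold limit of 1, and UVR8 and A3AT2 at this limit without the floor. Of the 10 genes, 2 were called with the floor of 4, 1 with a floor of 5 or with centred arrays (without FLS1), 4 with a fold limit of 1 and 5 with this limit and no floor. Leaving out 1 array gave 1 to 2 called genes, 3 without the floor and 1 to 2 with the filter on low values. At the limit on p, 4 genes passed, and 3 to 4 with 1 array left out (5 to 6 without the floor and 4 with the filter). Of the 61 further genes, 7 were called, 4 with a floor of 5, 13 with a fold limit of 1 and 21 with this limit and no floor. Of all 35986 features, 577 were called lower with the floor of 4 and 326 with a floor of 5. Centred arrays gave 524, and the values as deposited 1151. For the fold limit of 1 the share over all features is not given here, so nothing is read from those counts. Leaving out 1 array gave 4 to 5 (4 without untreated replicate 1 or 3), 10 to 11 without the floor and 7 to 8 with the filter (4CL1 being added without untreated replicate 3). Of all features, 312 to 416 were then called lower, 1027 to 1214 without the floor and 565 to 676 of 22468 with the filter. As a replicate block, the shared replicate numbers left 0 of the 10 genes called and 0 past the limit on p. Of the 61 genes 0 were called (limma, with 4 of the 10 and 19 of the 61 at an unadjusted p of 0.05). The block gave 3, 5 and 10 without the floor and 2, 4 and 7 with the filter. Of all features 17 were called lower with the block, 1152 without the floor and 621 of 22468 with the filter. CHS, CHI, FLS1 and MYB12, and PAL3, CHIL, MYB4, LBD37, HYH, RUP2 and BBX25 of the wider list, passed the filter only through their untreated arrays. Nothing is read from the filtered fits for these genes. Whether the replicate numbers pair the arrays is not given by the labels. Deviations of same-numbered arrays correlated at -0.09, -0.02 and 0.04, and those of unlike-numbered arrays at -0.11 to 0.10. Such correlations cannot show whether seed pools were shared, so the block fit is not set aside. With the floor, the sign changed for 2 named genes near 0. F3'H had 0.057 after quantile normalization and -0.281 to 0.108 with 1 array left out (0.048 without PEG replicate 2 or 3), also with the filter. TTG1 had -0.036 (without untreated replicate 3) to 0.042 with 1 array left out and -0.018 without PEG replicate 3, also without the floor or with the filter. Without the floor, 7 named genes under 4 on all arrays, BAN among them, also changed sign with 1 array left out (-0.301 to 0.322, lowest limma adjusted p 0.163). The cause of these differences was not tested. For DFR, LDOX and BAN, signal under the floor limits what can be measured.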
